A study of Mus musculus with 10 samples.

Results

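The 9 Pax genes, Pax1 to Pax9, encode the paired-box transcription factors of the mouse. They were taken as a fixed list of names, and all 9 were found among the 22350 protein-coding genes of the mm9 annotation on the 20 chromosomes that hold peaks. For each gene, Polycomb group (PcG) peaks were collected in a window made of the gene body with 10 kb on either side. The lists of peaks came from ChIP-seq in mouse embryonic stem cells (ESCs) and neural stem cells (NSCs). In ESCs, 8 of the 9 Pax windows held Ring1b, Ezh2 and H3K27me3 peaks and 7 also held Cbx2. In NSCs, Pax1, Pax2, Pax3, Pax5 and Pax7 kept both Ring1b and H3K27me3 peaks, Pax6, Pax8 and Pax9 had neither, and Pax4 had no peak in any of the 6 lists.

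Pax proteins bind DNA through the paired domain, and some members carry a homeodomain as well. They direct the formation of organs and cell lineages in the embryo, and the family falls into subfamilies of related genes: Pax1 with Pax9, Pax2 with Pax5 and Pax8, Pax3 with Pax7, and Pax4 with Pax6. Several members pattern the neural tube. PcG proteins keep developmental genes silent until they are needed. Ring1b is the catalytic core of Polycomb repressive complex PRC1, Cbx2 is a chromobox subunit of PRC1 that can bind H3K27me3, and Ezh2 is the methyltransferase of PRC2 that deposits H3K27me3. Many PcG sites of ESCs lie over CpG islands, stretches of DNA rich in CG dinucleotides.

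The ESCs were of the J1 line, grown on inactivated embryonic fibroblast feeders with serum and leukemia inhibitory factor, and the feeders were depleted before fixation. By the sample labels, the NSCs had been differentiated in culture from J1 ESCs and were kept on gelatin with EGF and FGF, so that they are not cells taken from a brain. No genotype change or drug treatment is given for either cell type. ESCs were profiled for Ring1b, Cbx2, Ezh2 and H3K27me3 and NSCs for Ring1b and H3K27me3. Cells were fixed in 1% formaldehyde for 10 min, and the study's methods give Ring1b samples an earlier fixation with the cross-linker EGS. Each of the 6 combinations has 1 library, so that no difference between cell types has a replicate check and no test was made between them. A peak list shows where enrichment over input passed the authors' threshold and not how strong it was, and the depth of the libraries is unknown. A lower share of bound cells and weaker binding in every cell cannot be told apart in such lists.

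The lists held between 1033 peaks (ESC Cbx2) and 2335 peaks (ESC Ring1b). Peaks of the smallest width, 1000 bp, made up 8.14% of the ESC Ring1b list and 29% of the NSC Ring1b list, and 16.8% and 26.8% of the ESC and NSC H3K27me3 lists. The labels were set against marker genes through peaks alone, since no expression was analysed. Among pluripotency markers, Pou5f1, Nanog, Zfp42, Klf4 and Tdgf1 had no peak in any list, while Esrrb had 2 of 5 start sites in H3K27me3 peaks of both cell types, which in ESCs goes against its use as a marker. Of the neural markers found in the annotation, Nes and Olig2 had Ring1b and H3K27me3 peaks in ESCs and none in NSCs, and Slc1a3, Fabp7 and Vim had no peak in any list. The lists therefore hold no peak that goes against the label of the NSCs at these 5 neural genes, while a missing peak does not show that a gene was expressed.

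The promoters of a gene that kept its NSC peaks, a gene that lost them and the gene without peaks are shown as examples. CpG content differed widely among the 9 genes. In the 1 kb centred on the 5′ end, the ratio of observed to expected CpGs was 0.638 to 0.696 at Pax1, Pax2, Pax3 and Pax7. It was 0.63 or less at the lost genes and lowest at Pax4 (0.0517). Pax5, a kept gene, had 0.524 and lay below Pax6 and Pax9. Pax2, Pax6 and Pax4 were taken because each had the largest share of its window under ESC Ring1b peaks in its class, or was its class's single member. Each sequence runs from 270 bases before to 30 bases after the annotated 5′ end on the strand of the gene, in mm9, with every CG dinucleotide in capitals. The Pax2 stretch is chr19:44830269-44830568 on the forward strand, Pax6 is chr2:105508783-105509082 on the forward strand, and Pax4 is chr6:28399324-28399623 on the reverse strand.
Pax2 (kept both): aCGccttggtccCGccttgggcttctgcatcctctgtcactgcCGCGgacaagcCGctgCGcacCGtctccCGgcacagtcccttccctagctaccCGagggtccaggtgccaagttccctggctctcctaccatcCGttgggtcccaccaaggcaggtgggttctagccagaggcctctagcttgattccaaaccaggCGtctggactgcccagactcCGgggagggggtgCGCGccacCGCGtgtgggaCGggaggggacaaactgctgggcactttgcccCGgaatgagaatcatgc
Pax6 (lost both): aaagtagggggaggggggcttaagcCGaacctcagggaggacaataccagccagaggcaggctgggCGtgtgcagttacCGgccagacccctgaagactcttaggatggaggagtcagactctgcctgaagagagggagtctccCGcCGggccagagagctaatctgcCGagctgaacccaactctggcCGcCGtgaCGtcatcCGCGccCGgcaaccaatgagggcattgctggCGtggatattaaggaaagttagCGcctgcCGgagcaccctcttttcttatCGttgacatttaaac
Pax4 (no peak): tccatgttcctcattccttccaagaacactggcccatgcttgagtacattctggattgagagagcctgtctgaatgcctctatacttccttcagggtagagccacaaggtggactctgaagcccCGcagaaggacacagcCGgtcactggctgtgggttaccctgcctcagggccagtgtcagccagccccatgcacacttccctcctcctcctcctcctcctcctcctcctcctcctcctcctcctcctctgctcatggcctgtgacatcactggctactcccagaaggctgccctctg
The Pax2 stretch holds 18 CGs and the Pax6 stretch 16, compared with 2 in Pax4, although GC content was 64.7%, 58.3% and 58%. Every base of the Pax2 stretch lay under peaks of ESC Ring1b, Cbx2 and Ezh2 and of NSC Ring1b and H3K27me3, but not of ESC H3K27me3. The Pax6 stretch was covered by ESC Ring1b and ESC H3K27me3 peaks only, and the Pax4 stretch by none.

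In each ESC list the count of Pax genes with a peak lay above the share in the annotation as a whole. Ring1b peaks lay in 8 of 9 Pax windows, compared with 11.5% of all protein-coding genes. For Ezh2 the count was 8 of 9 (background 5.28%), for H3K27me3 8 of 9 (9.97%) and for Cbx2 7 of 9 (3.09%). Peaks of all 4 ESC lists were present in 7 Pax windows, and 1.98% of all genes had them. These counts describe a family that was chosen with earlier results of the same data known, and long genes have larger windows. Counts of start sites do not depend on the window, although a gene with many annotated start sites, such as Pax6 with 29, is counted more easily. Ring1b peaks held an annotated start site of 8 Pax genes (8% of all genes), Cbx2 of 7 (1.36%), Ezh2 of 7 (3.12%) and H3K27me3 of 6 (5.28%). With the 5′ end of the gene alone, the Pax counts were 8, 6, 6 and 4 in the same order. The share of all genes was not computed for that setting.

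In NSCs, 5 of the 9 windows held Ring1b peaks (4.64% of all genes) and the same 5 genes held H3K27me3 peaks (4.7%). A start site of each of these 5 genes lay in an NSC Ring1b peak (2.04% of all genes) and in an NSC H3K27me3 peak (2.13%). Of the 1687 genes with both Ring1b and H3K27me3 in ESCs, 17.5% kept both in NSCs and 55.7% lost both, whereas among the 8 such Pax genes 5 kept both and 3 lost both. Genes with all 4 ESC lists form a closer comparison. Of 442 such genes 49.3% kept both, against 5 of 7 Pax genes, and 27.8% lost both, against 2 of 7, so that the Pax genes lay nearer to this background.

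**Figure D1:**
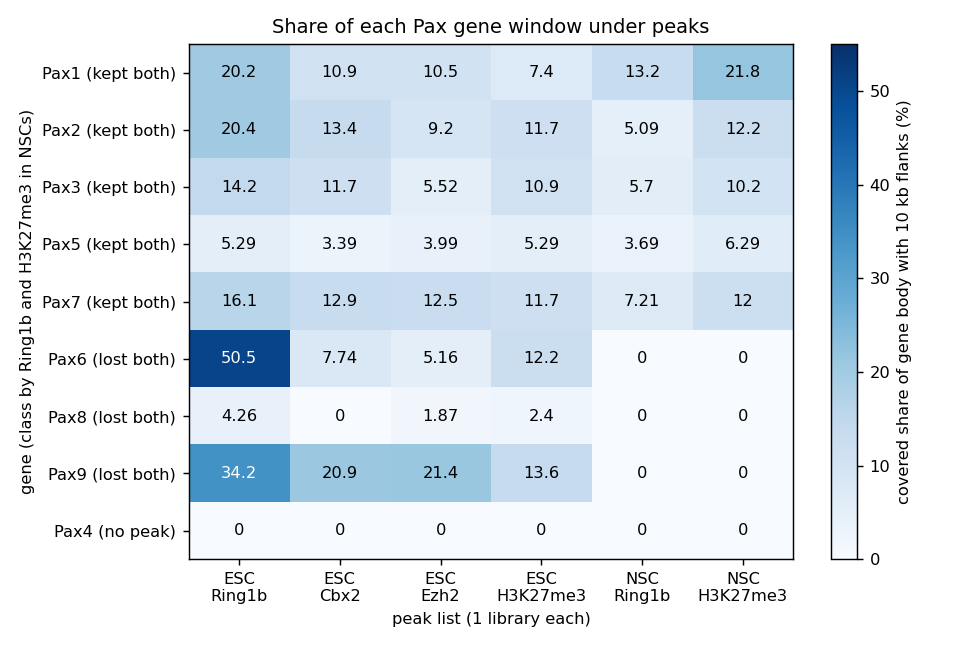
Share of each Pax gene window under peaks, in percent, for the 9 genes (rows, by class) and the 6 lists (columns, 1 library each), with darker blue for a larger share. The ESC Ring1b column reaches 50.5% at Pax6, the NSC columns are at 0 for Pax6, Pax8, Pax9 and Pax4, and Pax4 is at 0 throughout.

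Among genes with a peak, the median of the bases covered by ESC Ring1b was 15223.5 bp for the 8 Pax genes and 2200 bp for all 2572 genes. The medians were 8600 and 2000 bp for Cbx2, 7200 and 2000 bp for Ezh2, and 8600 and 1800 bp for ESC H3K27me3. In NSCs they were 6800 and 1600 bp for Ring1b and 12462 and 2000 bp for H3K27me3. Bases grow with the window, and as shares of the window the medians lay closer together. They were 18.2% and 4.41% for ESC Ring1b, 11.7% and 4.83% for Cbx2, and 7.36% and 4.52% for Ezh2. For H3K27me3 in ESCs they were 11.3% and 4.09%. The NSC shares were 5.7% and 3.29% for Ring1b and 12% and 4.48% for H3K27me3. Several peaks were among the widest of their lists. The ESC Ring1b peak of 24000 bp over Pax6 was the 10th widest of 2335, that of Pax2 (22800 bp) the 12th and that of Pax7 (18800 bp) the 24th. At Pax7, the ESC Ezh2 peak of 14600 bp was the 2nd widest of 1173 and the ESC Cbx2 peak of 15000 bp the 7th widest of 1033.

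**Figure D2:**
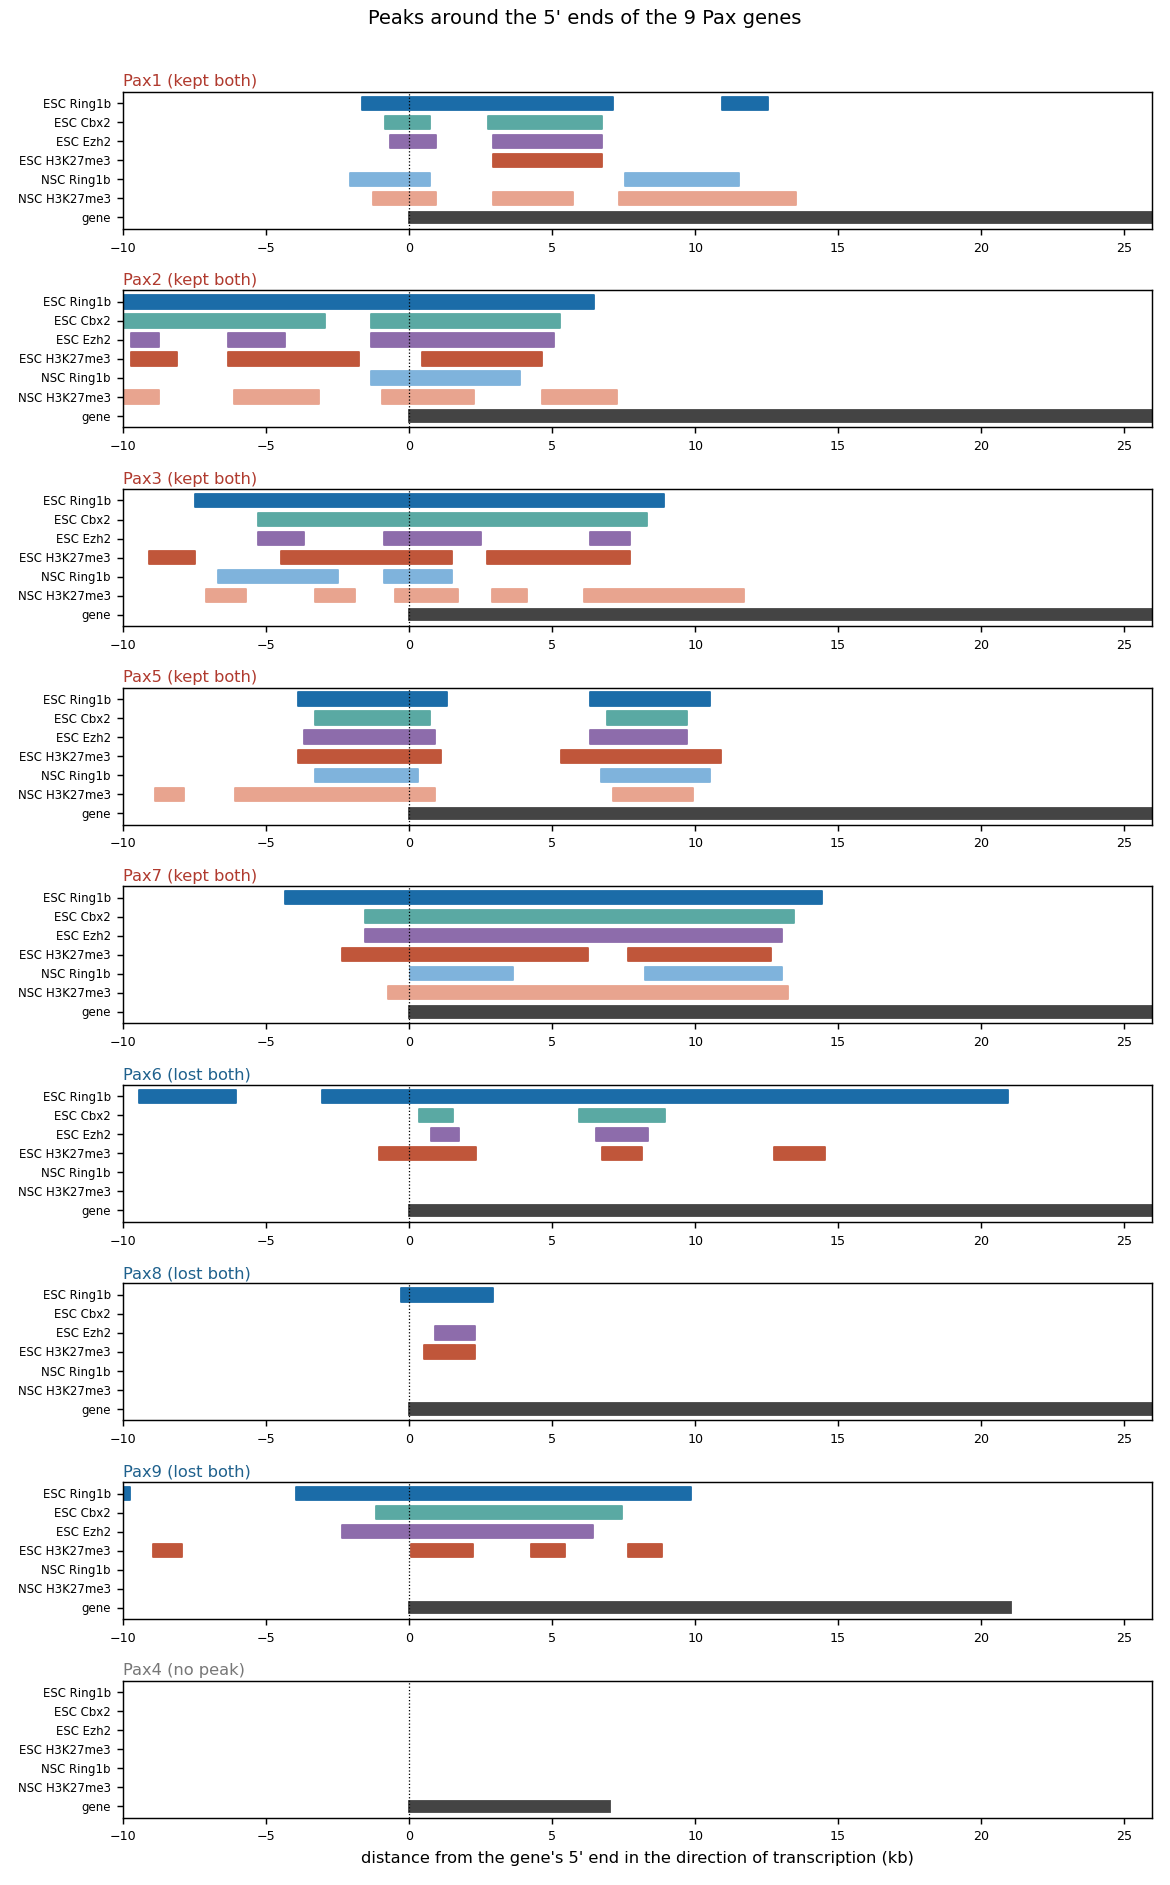
Peaks of the 6 lists along each Pax gene, by distance from the annotated 5′ end in the direction of transcription (kb), starting 10 kb upstream; bars are peaks, the dark bar is the gene body and the dotted line the 5′ end. Peaks gather around the 5′ ends, NSC peaks are present at Pax1, Pax2, Pax3, Pax5 and Pax7, and parts of genes further downstream are not shown.

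Pax1 and Pax9 act in the sclerotome, the source of the vertebral column, and in the pharyngeal pouches, and they differed in NSCs. Pax1 (ENSMUSG00000037034.8, chr2:147187661-147219031, forward strand, 7 exon blocks) had 10400 bp of its 51.371 kb window under ESC Ring1b peaks. Cbx2 covered 5600 bp, Ezh2 5400 bp and H3K27me3 3800 bp in ESCs. A Ring1b peak of 8800 bp at chr2:147186001-147194800 spanned the 5′ end and the inner start sites, with a separate peak of 1600 bp further downstream, whereas Cbx2 and Ezh2 each had a peak over the 5′ end and another further into the gene. H3K27me3 was called in a single peak at chr2:147190601-147194400 with the same boundaries as the inner Ezh2 peak, so that the 5′ end itself lay in Ring1b, Cbx2 and Ezh2 peaks but not in an H3K27me3 peak.

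In NSCs the covered bases of Pax1 moved in opposite directions for the PcG protein and the mark. Ring1b fell from 10400 to 6800 bp and H3K27me3 rose from 3800 to 11200 bp, or to 295% of the ESC value. The 5′ end of Pax1 lay in NSC peaks of both. A further NSC Ring1b peak at chr2:147195201-147199200 touched no exon block of Pax1 and filled most of the gap between the ESC Ring1b peaks, and an NSC H3K27me3 peak of 6200 bp spanned the same stretch. Pax1 was the only kept gene in which part of the NSC Ring1b lay outside ESC Ring1b peaks, with 44.1% of its NSC bases inside them. The 3800 bp that lay under all 4 ESC lists held no NSC Ring1b peak, while NSC H3K27me3 covered 73.7% of them. The noncoding gene AI646519 has its 5′ end in the same peaks as that of Pax1, on the other strand, and peaks do not say which of the 2 genes they belong to.

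Pax9 (ENSMUSG00000001497.11, chr12:57792754-57813809, forward strand, 4 exon blocks) had more of its window under ESC peaks than Pax1 in every ESC list, with shares of 34.2% for Ring1b, 20.9% for Cbx2, 21.4% for Ezh2 and 13.6% for H3K27me3. A single Ring1b peak of 13800 bp, at chr12:57788801-57802600, held all 3 start sites and 3 of 4 exon blocks. Cbx2 (8600 bp) and Ezh2 (8800 bp) also had a single peak over the start sites. H3K27me3 was in 4 separate peaks of 1000 to 2200 bp that held none of the 3 start sites, the nearest beginning 47 bp downstream of the 5′ end. That distance is smaller than the 200 bp step of the peak calls. With peaks within 3 kb merged, ESC H3K27me3 held a start site of 7 Pax genes instead of 6, with Pax9 added through its inner start sites. Neither NSC list had a peak in the window. The nearest NSC Ring1b peak lay 73.6 kb from Pax9 and the nearest NSC H3K27me3 peak 75.4 kb away, over Nkx2-9, a homeobox gene of the ventral neural tube. The noncoding gene Gm15524 starts inside the Ring1b and Ezh2 peaks of Pax9.

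Pax2, Pax5 and Pax8 share a subfamily and differ in their later tissues. Pax2 acts in kidney, optic stalk and the midbrain-hindbrain boundary, Pax5 at that boundary and in B lymphocyte commitment, and Pax8 in thyroid and kidney. Pax2 and Pax5 kept both NSC peaks and Pax8 lost both.

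Pax2 (ENSMUSG00000004231.7, chr19:44830539-44912758, forward strand, 11 exon blocks) had 20862 bp under ESC Ring1b, 13662 bp under Cbx2, 9400 bp under Ezh2 and 12000 bp under H3K27me3. All 5 start sites were in Ring1b, Cbx2 and Ezh2 peaks and 4 were in an H3K27me3 peak. The 22800 bp Ring1b peak extended upstream past the limit of the window, and the bases beyond it were not counted. In NSCs a single Ring1b peak of 5200 bp remained, at chr19:44829201-44834400, over 4 of the 5 start sites. This was 24.9% of the ESC coverage, the lowest of the 5 kept genes. H3K27me3 covered 12462 bp in NSCs, in 5 peaks, or 104% of its ESC coverage. A further NSC Ring1b peak, of 2000 bp, lay outside the window, 13.3 kb from the gene. A separate peak at the 3′ end of Pax2 was called for ESC Ring1b (4400 bp) and for H3K27me3 in ESCs (1600 bp) and NSCs (2400 bp). It held the 5′ end of 1700039E22Rik, a noncoding gene on the other strand, and no NSC Ring1b peak was called there.

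Pax5 (ENSMUSG00000014030.9, chr4:44544017-44724318, reverse strand, 13 exon blocks) is the longest of the 9 genes, so that its covered shares were low, at 3.39% to 6.29%, while its covered bases were not. ESC Ring1b covered 10600 bp, Cbx2 6800 bp, Ezh2 8000 bp and H3K27me3 10600 bp. Peaks of all 4 ESC lists and both NSC lists lay in the same pair of places, over the 5′ end and over an inner start region. In ESC Ring1b these were chr4:44723001-44728200 and chr4:44713801-44718000. NSC Ring1b covered 7400 bp (69.8% of ESC) and NSC H3K27me3 12600 bp (119%). Of the 6800 bp under all 4 ESC lists, 94.1% lay in NSC Ring1b peaks, 97.1% in NSC H3K27me3 peaks and 91.2% in both, the highest of the kept genes for each measure. A narrow peak inside the gene, at the 5′ end of the noncoding gene Gm12462, was called for ESC Ring1b (1200 bp) and NSC H3K27me3 (1800 bp).

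Pax8 (ENSMUSG00000026976.8, chr2:24276071-24331119, reverse strand, 13 exon blocks) had the least coverage of the 8 genes with peaks. ESC Ring1b covered 3200 bp in a single peak at chr2:24328201-24331400, which held 5 of 7 start sites. Ezh2 (1400 bp) and H3K27me3 (1800 bp) lay inside that peak but held no start site, and Cbx2 had no peak. Neither NSC list had a peak in the window, and the nearest NSC peaks lay 814 kb (H3K27me3) and 1132 kb (Ring1b) from the gene. The H3K27me3 peak is narrower than 2 kb, and with peaks at least 2 kb wide Pax8 no longer counted as a gene that lost both.

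Pax3 and Pax7 mark the dorsal neural tube and the neural crest, and muscle progenitors, in which Pax7 labels satellite cells. Both kept both NSC peaks. Pax3 (ENSMUSG00000004872.9, chr1:78097842-78193709, reverse strand, 9 exon blocks) had a single ESC Ring1b peak of 16400 bp and a single Cbx2 peak of 13600 bp over its 5′ end. Ezh2 was in 3 peaks over 6400 bp and H3K27me3 in 3 peaks over 12600 bp. All 3 start sites lay in a peak in each of the 6 lists, which held for no other Pax gene. In NSCs the Ring1b coverage was 6600 bp, in a peak over the start sites at chr1:78192201-78194600 and another upstream at chr1:78196201-78200400. H3K27me3 covered 11800 bp, 93.7% of the ESC value, although without flanks its share was higher in NSCs (8.88% against 6.79%). It was divided into 5 peaks, of which that at chr1:78182001-78187600 reached further into the gene than any other peak of Pax3. Upstream of the window, 17.3 to 18.5 kb from the gene, each of the 6 lists had another peak.

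Pax7 (ENSMUSG00000028736.6, chr4:139292977-139389445, reverse strand, 9 exon blocks) had the most even coverage of the 4 ESC lists. Ring1b covered 18800 bp, Cbx2 15000 bp, Ezh2 14600 bp and H3K27me3 13600 bp, and 12800 bp lay under all 4, the most of the 9 genes. Both start sites were in peaks of all 4 ESC lists. In NSCs Ring1b was divided into a peak of 3600 bp at the 5′ end and a peak of 4800 bp further into the gene, at chr4:139376401-139381200, with 8400 bp in all. The annotated 5′ end lay 45 bp outside the NSC Ring1b peak, so that 1 of the 2 start sites counted as bound, and this distance is smaller than the 200 bp step of the peak calls. NSC H3K27me3 was a single peak of 14000 bp, the 10th widest of 1647, which spanned both Ring1b peaks and the gap between them.

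Pax6 and Pax4 are needed for the endocrine pancreas, and Pax6 also for the eye and for neural progenitors of forebrain and spinal cord. Pax6 (ENSMUSG00000027168.12, chr2:105509053-105543317, forward strand, 15 exon blocks) had 27400 bp, or 50.5% of its 54.265 kb window, under ESC Ring1b, the largest share of any Pax gene in any list. The peak of 24000 bp, at chr2:105506001-105530000, held 28 of the 29 annotated start sites and 10 exon blocks. The other 3 ESC lists covered far less of Pax6. Cbx2 had 4200 bp, Ezh2 2800 bp and H3K27me3 6600 bp, so that 70.1% of the Ring1b bases lay outside all 3, compared with 13.2% to 44.2% in the other 7 genes with peaks.

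The peaks of the other ESC lists marked separate groups of Pax6 start sites. H3K27me3 held the 4 start sites at the 5′ end, from 105509053 to 105509092, while the nearest Cbx2 and Ezh2 peaks began 348 and 748 bp downstream of the 5′ end and held no Pax6 start site. A group further into the gene, under the Cbx2 peak at chr2:105515001-105518000, held peaks of all 4 lists, with 8 start sites in Cbx2, 5 in Ezh2 and 3 in H3K27me3. A further H3K27me3 peak, at chr2:105521801-105523600, held 7 start sites and had neither Cbx2 nor Ezh2. In NSCs no peak of Ring1b or H3K27me3 was called in the window, and the nearest lay 539 kb and 541 kb from the gene. Pax6os1, a noncoding gene on the other strand, has its 5′ end in the peaks of all 4 ESC lists and, like Pax6, had no NSC peak.

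Pax4 (ENSMUSG00000029706.8, chr6:28392334-28399353, reverse strand, 10 exon blocks) is the shortest of the 9 genes, with a body of 7020 bp, and had 0 bp under peaks in every list. The nearest peak of ESC Ring1b was 179 kb away and the nearest peaks of ESC Ezh2 and H3K27me3 and of both NSC lists were 306 to 307 kb away. With flanks of 25 kb Pax4 still had no peak. Absence from these lists says that no window passed the threshold, and not that binding was absent.

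The coverage of Ring1b and H3K27me3 in the 5 kept genes changed differently between ESCs and NSCs. Ring1b covered fewer bases in NSCs at all 5, and this was so for 78% of the 296 genes that kept both in the whole annotation. The NSC value was 65.4% of the ESC value at Pax1, 24.9% at Pax2, 40.2% at Pax3, 69.8% at Pax5 and 44.7% at Pax7, with a median of 44.7% and a median of 65.3% over the 296 genes. H3K27me3 covered more bases in NSCs at 4 of 5, and at 57.1% of the 296 genes. This count was 5 with flanks of 25 kb and 3 with peaks at least 2 kb wide, and the gene with fewer bases was Pax3 as reported, Pax5 without flanks and Pax7 with peaks within 3 kb merged, so that H3K27me3 had no stable direction at these 3 genes. Ring1b covered fewer bases at all 5 under each of these settings. For H3K27me3 the NSC value had a median of 104% of the ESC value for the Pax genes and 119% over all kept genes. The NSC Ring1b list also holds fewer and narrower peaks than the ESC list, and the part of this in the lower coverage was not tested.

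**Figure D3:**
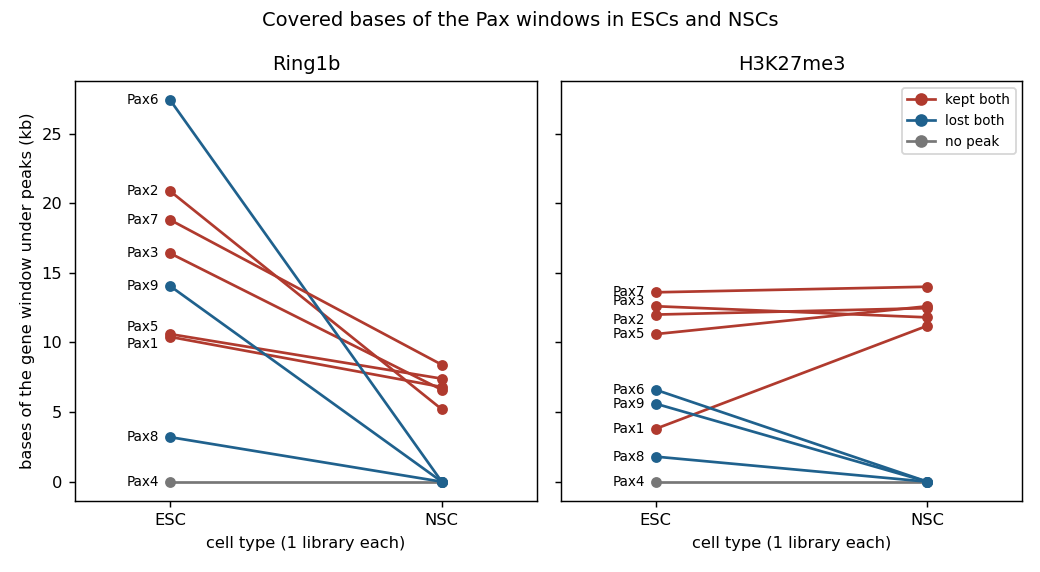
Bases of each Pax gene window under peaks (kb) in ESCs and NSCs, for Ring1b on the left and H3K27me3 on the right, with 1 line per gene coloured by class and 1 library per cell type. Every Ring1b line that starts above 0 falls. H3K27me3 lies between 11.2 and 14 kb in NSCs at the kept genes, after a rise from 3.8 kb at Pax1. It falls to 0 at Pax6, Pax8 and Pax9.

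The positions of NSC and ESC peaks were then compared within the kept genes. At Pax2, Pax3, Pax5 and Pax7, 100% of the NSC Ring1b bases lay within ESC Ring1b peaks, which covered at least as many bases of each window as ESC H3K27me3 peaks did. For H3K27me3 the share within ESC H3K27me3 peaks was 85.7% at Pax7, 60.3% at Pax5, 56.2% at Pax2, 52.5% at Pax3 and 25% at Pax1. In the other direction, NSC H3K27me3 covered more of the bases under all 4 ESC lists than NSC Ring1b did in each kept gene, with 73.7% against 0% at Pax1, 63.9% against 47.2% at Pax2, 73.9% against 69.6% at Pax3, 97.1% against 94.1% at Pax5 and 93.8% against 62.5% at Pax7. NSC H3K27me3 also covered more of each whole window, with 11200 against 6800 bp at Pax1 and 14000 against 8400 bp at Pax7. A preference for the bases under all 4 ESC lists was therefore not shown. Part of the bases with H3K27me3 in NSCs only had been under Ring1b in ESCs, from 24% at Pax5 and 45.2% at Pax1 through 50% at Pax3 and 85.4% at Pax2 to 100% at Pax7. Within NSCs, 57.6% to 100% of the Ring1b bases of the kept genes lay under H3K27me3, and 25.7% to 60% of the H3K27me3 bases lay under Ring1b. None of these shares was computed over the 296 genes that kept both, so they are not shown to be particular to Pax genes.

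The genes that kept and lost their NSC peaks were then compared in ESCs, by values alone, because 5 and 3 genes of the same libraries are not replicates. ESC Ring1b coverage did not separate them. It ranged from 10400 to 20862 bp in the kept genes (median 16400 bp) and from 3200 to 27400 bp in the lost genes (median 14047 bp). In bases, ESC H3K27me3 ranged from 3800 to 13600 bp in the kept genes (median 12000 bp) and from 1800 to 6600 bp in the lost genes (median 5600 bp). Of the kept genes, Pax1 alone lay within the range of the lost genes. Cbx2 had medians of 13600 and 4200 bp and Ezh2 of 8000 and 2800 bp, and in both lists Pax9 lay among the kept genes, so that the classes overlapped in all 4 lists. Under all 4 ESC lists at once lay 3800 to 12800 bp of the kept genes, compared with 2200 bp of Pax6, 3400 bp of Pax9 and 0 bp of Pax8. Most kept genes have longer windows, and as a share of the window the order turned for Ring1b and H3K27me3. The median share under ESC H3K27me3 was 10.9% in the kept genes and 12.2% in the lost genes, and that under ESC Ring1b was 16.1% and 34.2%, while Cbx2 (11.7% and 7.74%) and Ezh2 (9.2% and 5.16%) kept their order. With the widest single peak in place of covered bases, the differences between the medians fell to 4400 bp for Cbx2, 2800 bp for Ezh2 and 3400 bp for H3K27me3. The difference for Ring1b rose from 2353 to 2600 bp.

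The share of Ring1b bases that also carried H3K27me3 in ESCs was 36.5% at Pax1, 57.5% at Pax2, 67.1% at Pax3, 86.8% at Pax5 and 72.3% at Pax7. In the lost genes it was 24.1% at Pax6, 56.2% at Pax8 and 32.7% at Pax9. In the opposite direction nearly all H3K27me3, Ezh2 and Cbx2 bases lay under Ring1b. Ezh2 and Cbx2 bases did so at 100% in every gene that had them, and H3K27me3 bases at 100% except at Pax3 (87.3%), Pax5 (86.8%) and Pax9 (82.1%). The ESC Ring1b list was also the broadest, with 7.9 Mb against 4.91 Mb for H3K27me3, 2.85 Mb for Ezh2 and 2.59 Mb for Cbx2. The same shares over all genes with peaks were not computed. The class of Pax8 and Pax9 rests on the gene window. When only start sites were counted, both had ESC Ring1b without H3K27me3, and Pax6 was the 1 gene that lost both. For Pax9 this depends on the peak calls, since merging peaks within 3 kb placed its inner start sites under ESC H3K27me3.

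CpG content was examined because it was no part of how the genes or classes were chosen. In the 1 kb centred on the 5′ end, the ratio of observed to expected CpGs was 0.654 at Pax1, 0.696 at Pax2, 0.669 at Pax3, 0.524 at Pax5 and 0.638 at Pax7. It was 0.566 at Pax6, 0.63 at Pax9, 0.222 at Pax8 and 0.0517 at Pax4. The median of all protein-coding genes was 0.549, and that of the 1789 genes with a start site in an ESC Ring1b peak was 0.731, so that each of the 8 bound Pax genes lay below the median of bound genes. Pax4, with no peak, had a lower ratio than all but 1.88% of genes, whereas Pax8, which had an ESC Ring1b peak at its 5′ end, was higher than 24.5% of genes.

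CpG islands were found in every window, as stretches with GC content of at least 50% and a ratio of at least 0.6 in windows of 200 bp. Pax6 had 31, which covered 13833 bp or 25.5% of its window, the most of the 9 genes. Pax2 had 26 (12171 bp), Pax3, Pax5 and Pax7 24 each (9664, 11597 and 10995 bp), Pax9 12 (6518 bp), Pax1 9 (4426 bp), Pax8 4 (1493 bp) and Pax4 3 (1240 bp). ESC Ring1b peaks covered most island bases of each gene with peaks, from 60.5% at Pax5 to 93.9% at Pax6, and none at Pax4. At Pax6, Ezh2 covered 15.5% and H3K27me3 31.4% of the same island bases. At Pax7 the shares under Ring1b, Cbx2, Ezh2 and H3K27me3 were alike, at 67.8% to 73.6%. The amount of island sequence did not follow the class, since Pax6 had the most and kept no NSC peak, while Pax1 had less than Pax9 and kept both.

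**Figure D4:**
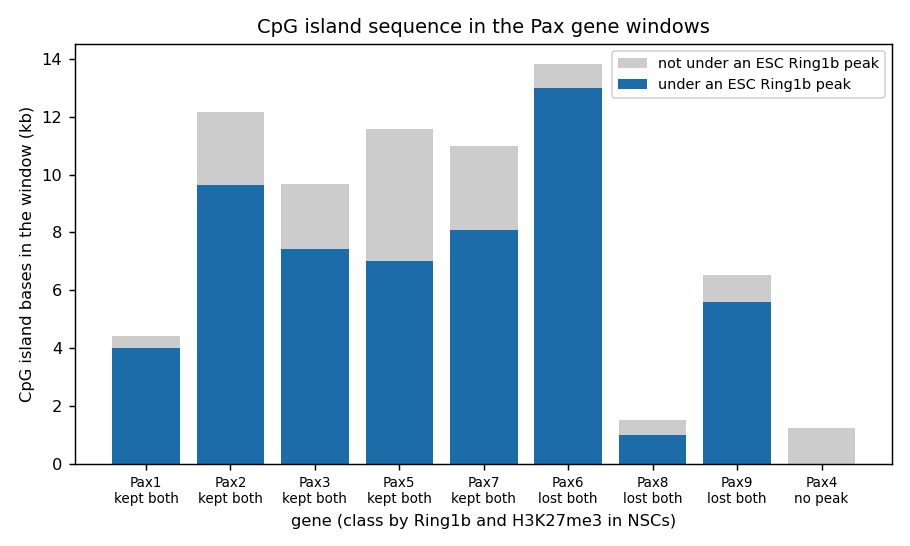
CpG island bases in the window of each Pax gene (kb), divided into bases under an ESC Ring1b peak (blue) and bases outside (grey), with the class of each gene below its name. Pax6 has the highest bar, at 13833 bp with 93.9% under Ring1b, and Pax4 has no island base under Ring1b.

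Pax factors act with a network of other regulators, which includes homeodomain factors such as Six2 and Six3, the Eya coactivators and the Dach corepressors. Six2, Six3 and Six6 kept both Ring1b and H3K27me3 peaks in NSCs, and Dach1 lost both. Six3, a forebrain and eye factor, had 20200 bp under ESC Ring1b and 11400 bp in NSCs, with H3K27me3 at 12200 and 15800 bp. Six6 differed from the kept Pax genes, since NSC coverage was larger for both Ring1b (19469 against 8400 bp) and H3K27me3 (14600 against 1000 bp). Eya1, Eya2, Eya3 and Six4 had no peak in any list, Dach2 had Cbx2 alone, Six5 had ESC Ring1b alone, and Eya4 had Ring1b in both cell types with H3K27me3 in NSCs only.

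Progenitor domains of the neural tube are marked by Pax3, Pax6 and Pax7 together with other homeodomain and bHLH factors, of which 11 were listed. Peaks of all 4 ESC lists were present at 10 of them (1.98% of all genes). Of these 10 genes 6 kept both and 3 lost both, next to 49.3% and 27.8% of all genes with the 4 lists. Dbx1, Nkx2-9, Nkx6-1, Nkx6-2, Msx1 and Gsx2 kept both NSC peaks, and Irx3, Nkx2-2 and Olig2 lost both, as Pax6 did. Nkx2-2, which specifies ventral progenitors, had 17400 bp under ESC Ring1b and 12200 bp under ESC H3K27me3 and none in NSCs. Olig2 had 11600 and 11800 bp and none in NSCs. Nkx2-2 is also the nearest gene under ESC peaks outside the window of Pax1, 165 kb from it, and it lost the peaks that Pax1 kept. For Pax9 the order was the opposite, since its neighbour Nkx2-9 kept Ring1b (1400 bp) and H3K27me3 (4200 bp). Msx1, a factor of the dorsal neural tube, had 14200 bp under ESC Ring1b and 8200 bp in NSCs, and its H3K27me3 covered 11000 and 10600 bp. Gsx1 had H3K27me3 but no Ring1b in NSCs, and Dbx2 had ESC H3K27me3 alone.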

How the data were processed

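ChIP-seq peaks were analysed from 6 libraries, 1 for each cell type and target, grouped by their labels. To call peaks, the authors slid a 1 kb window along each chromosome in steps of 200 bp and tested its ChIP tags against input with a negative binomial model, tuned by eye, before joining neighbouring enriched windows. The deposited values are the mm9 start and end of every peak. Heights, scores and p-values are not among them. The study's methods name Bowtie as the aligner and the submitters' processing notes name BWA. Tag numbers are unknown, and the 4 inputs were not analysed here.

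Genes, start sites and sequence came from mm9 (NCBIM37) with GENCODE annotation, and all peaks ended within the chromosome lengths of that build. A peak counted when it shared at least 1 bp with the window of a gene. A gene kept a target when its window held peaks of that target in ESCs and NSCs, and lost it when only ESC peaks were present. Start sites are the 5′ ends of all annotated transcripts. For genes of the network, patterning and marker lists with several entries under a name, the longest entry was used. Counts over all protein-coding genes took every entry by itself. Coverage was computed in Python 3.11.15 with numpy 2.4.6, checked on planted peaks and drawn with matplotlib 3.10.9. Intervals in scipy 1.17.1 served only to judge alternatives.

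The members, gene lists and classes were chosen with earlier results of these data known. Named were the 9 Pax genes, genes that start in their windows, and the listed regulators of the Pax network, neural tube and marker genes; a result of the network list is not reported here, and Sox1, a listed marker, was not found by name in the annotation. Printed sequences are of the gene with the largest ESC Ring1b share in each class. Alternatives were other flanks, widths, gaps, overlaps and start sites.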

Additional observations from a re-analysis of the deposited data

How the results depend on the processing

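Of 75 counts of Pax genes recomputed under other settings, 74 stayed within 1.5 times the reported count. The exception was the count of genes that lost both, 1 instead of 3 when start sites were used, since Pax8 and Pax9 have no start site in an ESC H3K27me3 peak. Peaks at least 2 kb wide moved Pax8 alone out of its class, and the 5 other settings moved no gene. The share of the 9 windows together under peaks was 15.5% for ESC Ring1b, 8.61% for Cbx2, 7.25% for Ezh2 and 8.5% for ESC H3K27me3, and 4.39% and 7.92% for NSC Ring1b and H3K27me3. Without flanks ESC Ring1b, ESC H3K27me3 and NSC Ring1b moved to 13.7%, 7.62% and 3.75%. With flanks of 25 kb the values, in the order above, were 13%, 6.76%, 6.06%, 6.81%, 3.64% and 6.8%. ESC Ezh2, ESC H3K27me3 and NSC H3K27me3 moved to 6%, 6.81% and 7.05% with peaks at least 2 kb wide and to 8.55%, 10.3% and 10.4% with peaks within 3 kb merged. The difference between median ESC Cbx2 coverage of kept and lost genes was 9400 bp, and 4400 bp for the widest peak. For Ezh2 it was 5200 and 2800 bp, for H3K27me3 6400 and 3400 bp and for Ring1b 2353 and 2600 bp. With all annotated genes in place of protein-coding genes the background fell to 8.97%, 2.75%, 4.2%, 7.66%, 3.76% and 3.82%. No paired analysis was possible because each cell type and target has 1 library and no result comes from a test. Depth is unknown, so that a missing peak sets no limit on binding.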
